A study of Mus musculus with 24 samples.

Results

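Melanin is made in the melanosome by 3 related enzymes. Tyrosinase, encoded by Tyr, oxidises tyrosine to DOPA and DOPA to dopaquinone, the rate-limiting steps of pigment synthesis. Dopachrome tautomerase, encoded by Dct, converts dopachrome to DHICA on the eumelanin branch, and tyrosinase-related protein 1, encoded by Tyrp1, acts further along that branch and is known to stabilise tyrosinase. MITF, a basic helix-loop-helix leucine zipper factor, is the best known activator of the 3 genes in melanocytes, and TFEB and TFE3 are its close relatives, which bind similar sequences and are known mainly as regulators of lysosomal genes. The 3 genes were taken by symbol from a table of 12010 genes, and all 3 had a row, so that none was lost to a filter on low values.

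mRNA was measured in 8 lines of B16-F10-luc2, a mouse melanoma line that carries a luciferase reporter, with 3 libraries of each and all cells in DMEM with 10% FBS. The lines were the parental cells, MITF KO, TFE3 KO, TFEB KO, MITF/TFE3 DKO, MITF/TFEB DKO, TFEB/TFE3 DKO and the triple knockout (TKO), so that each combination of the 3 knockouts occurred. TFEB and TFE3 had been disrupted with CRISPR guides in parental and in MITF KO cells, and the resulting cells were isolated as clones, whereas the MITF KO line came from earlier work. With 1 line of each genotype, the effect of a knockout and other differences of its line cannot be told apart. Below, the loss or effect of a factor is a name for a comparison of lines. The sources used here do not say whether TKO was made from a DKO line or TFEB/TFE3 DKO from a single KO. Lines such as MITF/TFEB DKO and TKO may thus share other changes and may not be independent. The p-values measure the spread between libraries of a line, which may be technical.

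The libraries held 18300902 to 26667877 reads on genes. Values are CPM, the reads of a gene relative to its library's total, scaled by the TMM method, and since only the 3′ end of each transcript was sequenced, no correction for length applies. The edited genes were read first. Tfeb ran from 2.06 to 5.27 CPM in the libraries of the 4 lines without TFEB and from 7.87 to 22.7 CPM in the others, and Tfe3 from 8.01 to 21.8 CPM without TFE3 and from 31.1 to 62.5 CPM with it. Mitf transcript was at 1358 to 1470 CPM in MITF KO and 763 to 797 CPM in the parental cells. Since it can persist from a gene with a frameshift, it does not check the MITF label. It was at 543.8 to 603 CPM in MITF/TFEB DKO and 326 to 349.7 CPM in TKO, the lowest of the 8 lines. The study's western blot of MITF KO showed a minor fast-migrating band. The paper proposes that these cells may hold a little truncated MITF. Below, cells without MITF are those with the MITF knockout. No line lacked the melanocyte markers (5 of 5 measured, summed level 2278 to 7612 CPM in the 24 libraries), and none of 5 markers of macrophages and other blood cells was in the table.

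The promoters of the 3 genes share a short sequence, and it is shown here because members of the MITF family bind CATGTG and CACGTG. The RefSeq promoter table (GRCm38.p6) gave a window from 250 bases before to 50 after the start of each gene, and each window matched the mm39 genome (GRCm39) exactly once. In the 29 bases printed for each gene, 5′ to 3′ on the strand of the gene, capitals mark TCATGTG, the core of the element known as the M-box.
Tyr: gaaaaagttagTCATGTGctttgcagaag
Tyrp1: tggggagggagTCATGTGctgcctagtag
Dct: tgcacttagggTCATGTGctaacaaagag
The Tyr stretch lies at chr7:87142725-87142753 on the minus strand, that of Tyrp1 at chr4:80752392-80752420 on the plus strand and that of Dct at chr14:118289792-118289820 on the minus strand, each upstream of the RefSeq start. Another transcript of Tyrp1 in GENCODE vM39 starts further upstream, so that the Tyrp1 stretch lies in the 5′ UTR of that transcript. The first capital stands 22 bases before the start of Tyr, 47 before that of Tyrp1 and 151 before that of Dct.

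In all 3 genes the capitals are followed by the same bases, which gives TCATGTGCT. On either strand, TCATGTG was found in 3.77% of all 32851 promoter windows, CATGTG, which lies within it, in 14.2%, and the longer TCATGTGCT, chosen after the 3 windows were seen, in 0.408%. Over the 12312 windows of genes in the table, which include the 3, these shares were 2.11%, 8.38% and 0.130%. Dct has a second TCATGTG on the opposite strand 232 bases before its start. CACGTG, found in 7.15% of all windows (10.1% for genes in the table), and TCACGTG, found in 3.77% (6.16%), are not in these 3 windows. A match is a description of the sequence and not of binding.

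Tyr (ENSMUSG00000004651, chr7:87073979-87142720) was at a similar level in 6 lines and far lower in MITF/TFEB DKO and TKO. In the parental libraries it was at 126.7, 133.3 and 134.3 CPM, and in MITF KO at 101.9, 118.4 and 113.5 CPM. MITF/TFE3 DKO held 107.2, 81.6 and 115.4 CPM. Both lines lay below the parental range in every library, at 84.7% and 77.1% of its mean. In MITF/TFEB DKO the 3 libraries were at 12.5, 11.8 and 14.1 CPM and in TKO at 8.78, 7.66 and 8.60 CPM, the lowest values of the 24 libraries and apart from each other. With MITF present, Tyr was at 93.2, 116.4 and 144.9 CPM in TFE3 KO. TFEB KO held 130.5, 94.3 and 94.25 CPM, and TFEB/TFE3 DKO 153.8, 146.5 and 123.9 CPM. Each of these 3 lines overlapped the parental range.

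**Figure D1:**
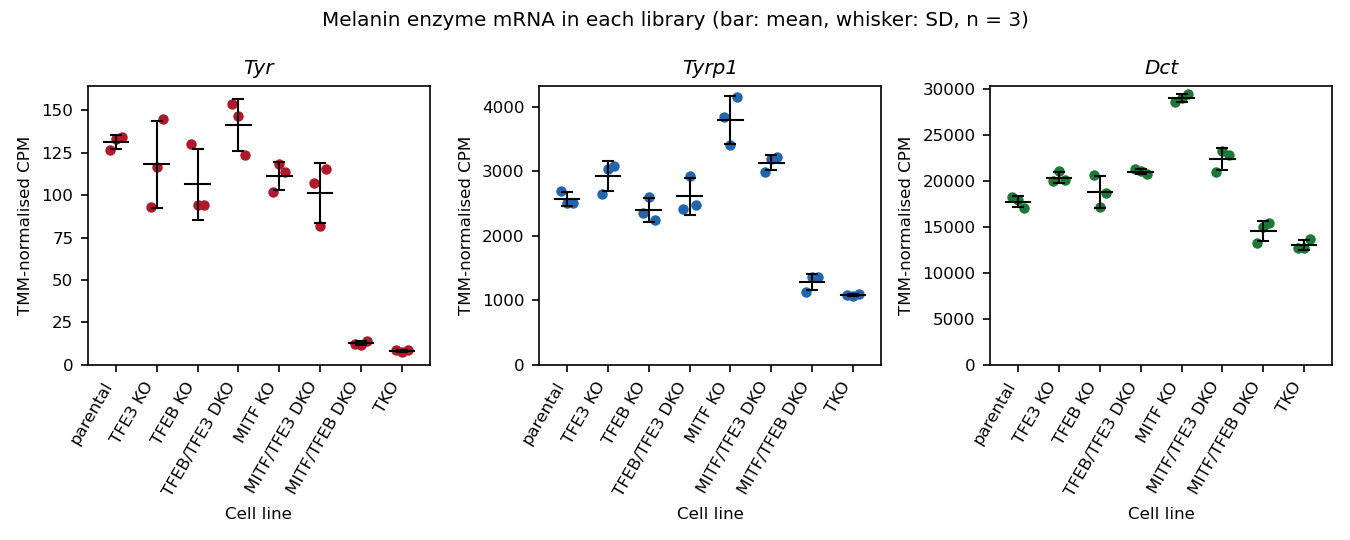
TMM-normalised CPM of Tyr, Tyrp1 and Dct (vertical axes, linear from 0) in the 8 cell lines, with 1 point per library, a bar at the mean and whiskers of 1 SD (n = 3). Tyr is near 0 in MITF/TFEB DKO (12.8 ± 1.16 CPM) and TKO (8.35 ± 0.604 CPM), whereas Dct keeps 82.0% and 73.5% of its parental mean there and is highest in MITF KO.

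Ordered by its mean, Tyr ran from TFEB/TFE3 DKO (141 ± 15.6 CPM, SD, n = 3) through the parental cells (131 ± 4.13), TFE3 KO (118 ± 25.9), MITF KO (111 ± 8.50), TFEB KO (106 ± 20.9) and MITF/TFE3 DKO (101 ± 17.6) to MITF/TFEB DKO (12.8 ± 1.16) and TKO (8.35 ± 0.604). Each pair of neighbours among the first 6 overlapped in range, and the last 2 lines stood apart from those above them and from each other. Relative to the parental mean, Tyr was at 9.74% in MITF/TFEB DKO and at 6.35% in TKO. These levels rest on 282 to 354 reads per library in MITF/TFEB DKO and 161 to 241 in TKO, against 2931 to 2989 in the parental cells, so that Tyr was detected in every library.

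Tyrp1 (ENSMUSG00000005994, chr4:80752360-80769956) was highest in MITF KO and lowest in the same 2 lines in which Tyr was low. The parental libraries were at 2698, 2506 and 2509 CPM, those of MITF KO at 3834, 3400 and 4145 CPM, and those of MITF/TFE3 DKO at 2995, 3196 and 3217 CPM. All 6 libraries of these 2 knockout lines lay above the parental ones. MITF/TFEB DKO held 1134, 1359 and 1357 CPM and TKO 1074, 1063 and 1099 CPM, all below every other library and with TKO below MITF/TFEB DKO. With MITF present, TFE3 KO was at 2655, 3033 and 3078 CPM, TFEB KO at 2357, 2596 and 2241 CPM, and TFEB/TFE3 DKO at 2419, 2933 and 2476 CPM. Each of these 3 lines overlapped the parental range.

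In order, Tyrp1 ran from MITF KO (3793 ± 373.9 CPM, SD, n = 3), which stood apart, to MITF/TFE3 DKO (3136 ± 122.5), TFE3 KO (2922 ± 232), TFEB/TFE3 DKO (2609 ± 281), the parental cells (2571 ± 109.7) and TFEB KO (2398 ± 181), where each line overlapped the next, and then to MITF/TFEB DKO (1283 ± 129.5) and TKO (1078 ± 18.6), which were apart from those above them. This is 49.9% of the parental mean in MITF/TFEB DKO and 41.9% in TKO.

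Dct (ENSMUSG00000022129, chr14:118250202-118289656) had the highest value of all 12010 genes in each of the 24 libraries and took 1.31% to 2.96% of the reads on genes. In the parental libraries it was at 18263, 17963 and 17027 CPM. In MITF KO it was at 28565, 29029 and 29472 CPM, above every other library of the series. MITF/TFE3 DKO followed with 20994, 23254 and 22847 CPM, and here too all 3 libraries lay above the parental ones. MITF/TFEB DKO held 13265, 15004 and 15385 CPM and TKO 12750.0, 12715 and 13661 CPM. These 2 lines overlapped each other and lay below every other library, but at 82.0% and 73.5% of the parental mean they were far closer to it than Tyr was. TFE3 KO (19960 to 21068 CPM) and TFEB/TFE3 DKO (20722 to 21303 CPM) lay above the parental libraries, and TFEB KO (17175 to 20591 CPM) overlapped them. In order of the means, Dct ran from MITF KO (29022 ± 453 CPM, SD, n = 3), which stood apart, through MITF/TFE3 DKO (22365.0 ± 1205), TFEB/TFE3 DKO (21018 ± 291), TFE3 KO (20359 ± 616), TFEB KO (18800.0 ± 1714) and the parental cells (17751.0 ± 645) to MITF/TFEB DKO (14551 ± 1130.0) and TKO (13042 ± 536.5). Each line overlapped the next, except MITF KO with MITF/TFE3 DKO and the parental cells with MITF/TFEB DKO.

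No other annotated gene (GENCODE vM39) lay over the last 1000 bases of Tyr, Tyrp1 or Dct on either strand. No stretch of 50 bases from the last 500 bases of their transcripts occurred in an annotated transcript of another gene, read in its own direction. Among annotated transcripts, such a stretch could thus be assigned to 1 gene. The rest of the genome was not searched. A long noncoding RNA, 4930435M08Rik, overlaps the body of Dct on the opposite strand, outside its last 1000 bases.

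The first question was how each knockout line differed from the parental cells. The lines were compared with limma on log2(CPM + 1), a scale that understates the change of low genes, and a gene was called at a change of at least 2-fold with an unadjusted p under 0.05. Beside this, a gene was said to be higher or lower if its p adjusted over the 12010 genes was under 0.05 but its change was smaller.

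Loss of MITF alone did not lower the 3 genes to a call. Dct was higher in MITF KO by 0.71 on the log2 scale (SE 0.11, 1.64-fold, limma adjusted p = 2.8e-05) and Tyrp1 by 0.56 (SE 0.10, 1.47-fold, adjusted p = 1.1e-04), whereas the difference of Tyr was -0.24 (95% interval -0.54 to 0.06, adjusted p = 0.20). In this comparison 6.28% of all genes were called and 37.8% had an adjusted p under 0.05, so that passing the second threshold was common. In MITF/TFE3 DKO, none of the 3 was called, against 5.87% of all genes. Tyrp1 (0.29, adjusted p = 0.024) and Dct (0.33, adjusted p = 0.021) were again higher and Tyr lower (-0.39, adjusted p = 0.037), a threshold that 41.9% of genes passed.

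The single losses of TFEB and TFE3, and their joint loss with MITF present, called none of the 3 genes. In TFEB KO the differences were -0.32 for Tyr (95% interval -0.62 to -0.02, adjusted p = 0.27), -0.10 for Tyrp1 and 0.08 for Dct, and 0.783% of all genes were called. In TFE3 KO they were -0.17, 0.18 and 0.20 in the same order, with intervals that reached from -0.48 for Tyr to 0.43 for Dct, and 1.71% of genes were called. In TFEB/TFE3 DKO they were 0.10, 0.02 and 0.24, with intervals from -0.20 for Tyr to 0.48 for Dct, and 0.958% were called. The intervals of these 9 differences lay inside the 2-fold bounds, and their adjusted p ran from 0.20 to 0.95.

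In both lines that lack MITF and TFEB, Tyr and Tyrp1 were called lower than in the parental cells. In MITF/TFEB DKO, Tyr fell by 3.27 on the log2 scale (SE 0.15, 9.62-fold, adjusted p = 1.4e-14) and Tyrp1 fell by 1.01 (SE 0.10, 2.01-fold, adjusted p = 1.2e-08), and Dct was lower by a smaller amount that was not called (-0.29, SE 0.11, adjusted p = 0.033). The call of Tyrp1 lies at the 2-fold edge, with differences of -0.97 without parental replicate 1, -0.92 without MITF/TFEB DKO replicate 1 and -0.65 with quantile normalisation. Among all genes 13.7% were called and 56.1% passed the adjusted threshold. In TKO the differences were -3.83 for Tyr (SE 0.15, 14.2-fold, adjusted p = 4.0e-16), -1.25 for Tyrp1 (SE 0.10, 2.38-fold, adjusted p = 2.5e-10) and -0.44 for Dct (SE 0.11, adjusted p = 0.0018), of which the first 2 were called. Here 14.7% of genes were called and 56.2% passed the adjusted threshold, and with quantile normalisation Tyrp1 lost its call at -0.94.

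**Figure D2:**
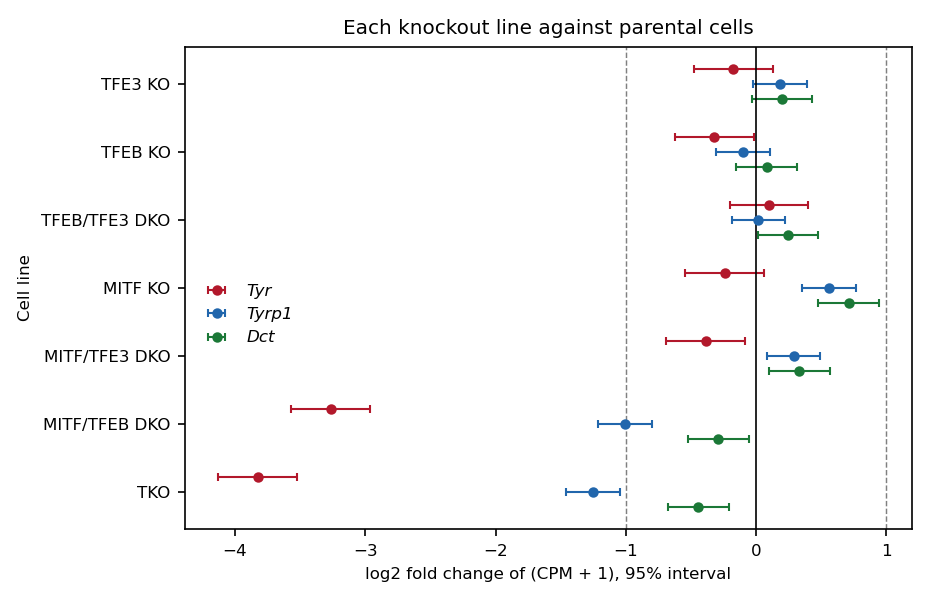
log2 fold change of CPM + 1 for Tyr, Tyrp1 and Dct in each knockout line against the parental cells (horizontal axis), with 95% intervals from the limma fit of the 24 libraries. Dashed lines mark 2-fold. Tyr is past -3 in MITF/TFEB DKO (-3.27) and TKO (-3.83), where Dct stays at -0.29 and -0.44.

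MITF/TFEB DKO and TKO also differed from the other lines in other markers. The summed level of the 5 melanocyte markers Pmel, Mlana, Mitf, Sox10 and Pax3 was 2981 to 3114 CPM in MITF/TFEB DKO and 2278 to 2328 CPM in TKO and 6107 to 7612 CPM elsewhere. In the parental cells most of this sum is Pmel, at 3771 CPM. Pmel was at 940.4 CPM in MITF/TFEB DKO and 551.5 CPM in TKO, where Sox10 was the largest part. The lineage factors among the 5 markers differed in this. Sox10 was higher than in the parental cells (731 CPM) in MITF/TFEB DKO (1053 CPM, 0.52, limma adjusted p = 7.5e-05) and TKO (1006 CPM, 0.46, adjusted p = 3.1e-04). Pax3 was at 239 CPM in the parental cells, 224 CPM in MITF/TFEB DKO and 236 CPM in TKO (adjusted p = 0.30 and 0.85). Mitf transcript was lower, as Pmel was, at 776 CPM in the parental cells, 580 CPM in MITF/TFEB DKO and 335 CPM in TKO. Of 4 keratinocyte markers only Krt14 was in the table, at 6.51 to 8.98 CPM in MITF/TFEB DKO, 16.1 to 19.3 CPM in TKO and at most 0.161 CPM elsewhere. Of 5 fibroblast markers Dcn, Pdgfra and Lum were not in the table, and Col1a1 and Col1a2 together were at 34.4 to 45.3 CPM in MITF/TFEB DKO, 32.7 to 41.5 CPM in MITF KO, 15.99 to 17.4 CPM in TKO and 9.73 to 23.9 CPM in the other lines. Of 3 endothelial markers only Pecam1 was in the table, at most 0.627 CPM in MITF KO, MITF/TFEB DKO and TKO and 1.10 to 31.6 CPM elsewhere. The part of these differences in the results for Tyr, Tyrp1 and Dct was not tested, and in bulk RNA fewer cells of a type and less RNA per cell cannot be told apart.

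The effect of TFEB was then read in 4 backgrounds. In cells with MITF, loss of TFEB changed none of the 3 genes to a call, either in the parental background or in TFE3 KO, where TFEB/TFE3 DKO differed by 0.27 for Tyr, -0.17 for Tyrp1 and 0.05 for Dct (adjusted p from 0.16 to 0.79, intervals from -0.37 for Tyrp1 to 0.58 for Tyr). In this last comparison 2.87% of genes were called. In cells without MITF, Tyr was 8.14-fold lower (-3.02, SE 0.15, adjusted p = 3.7e-14) and Tyrp1 2.96-fold lower (-1.56, SE 0.10, adjusted p = 7.2e-12) in MITF/TFEB DKO than in MITF KO. Dct differed by -0.9988 (SE 0.11, 1.998-fold, adjusted p = 1.3e-07), just under the 2-fold bound, and it passed the bound without MITF KO replicate 1 (-1.01), MITF/TFEB DKO replicate 2 (-1.02) or MITF/TFEB DKO replicate 3 (-1.04). Of all genes 10.9% were called and 49.0% passed the adjusted threshold.

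The same 2 genes were called without TFE3. In TKO against MITF/TFE3 DKO, Tyr fell by 3.44 (SE 0.15, 10.9-fold, adjusted p = 4.0e-15) and Tyrp1 fell by 1.54 (SE 0.10, 2.91-fold, adjusted p = 1.0e-11), and Dct was lower by 0.78 without a call (-0.78, SE 0.11, 1.71-fold, adjusted p = 4.2e-06). Called genes made up 11.4% of the table and 50.8% passed the adjusted threshold. In each background without MITF, the 3 libraries without TFEB lay below the 3 with it for all 3 genes.

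Loss of TFE3 called none of the 3 genes in any of its 4 backgrounds. In MITF/TFE3 DKO against MITF KO, Tyrp1 (-0.27, 1.21-fold, adjusted p = 0.036) and Dct (-0.38, 1.30-fold, adjusted p = 0.011) were lower, Tyr differed by -0.15 (95% interval -0.45 to 0.16, adjusted p = 0.45) and none was called, with 5.06% of genes called and 37.7% past the adjusted threshold. In TKO against MITF/TFEB DKO, Tyr was lower (-0.56, 1.48-fold, adjusted p = 0.011), Tyrp1 differed by -0.25 (adjusted p = 0.12) and Dct by -0.16 (adjusted p = 0.46), with 2.30% of genes called and 12.4% past the adjusted threshold. In TFEB/TFE3 DKO against TFEB KO, the differences were 0.42 for Tyr (95% interval 0.12 to 0.72, adjusted p = 0.15), 0.12 for Tyrp1 and 0.16 for Dct, with 0.192% of genes called.

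**Figure D3:**
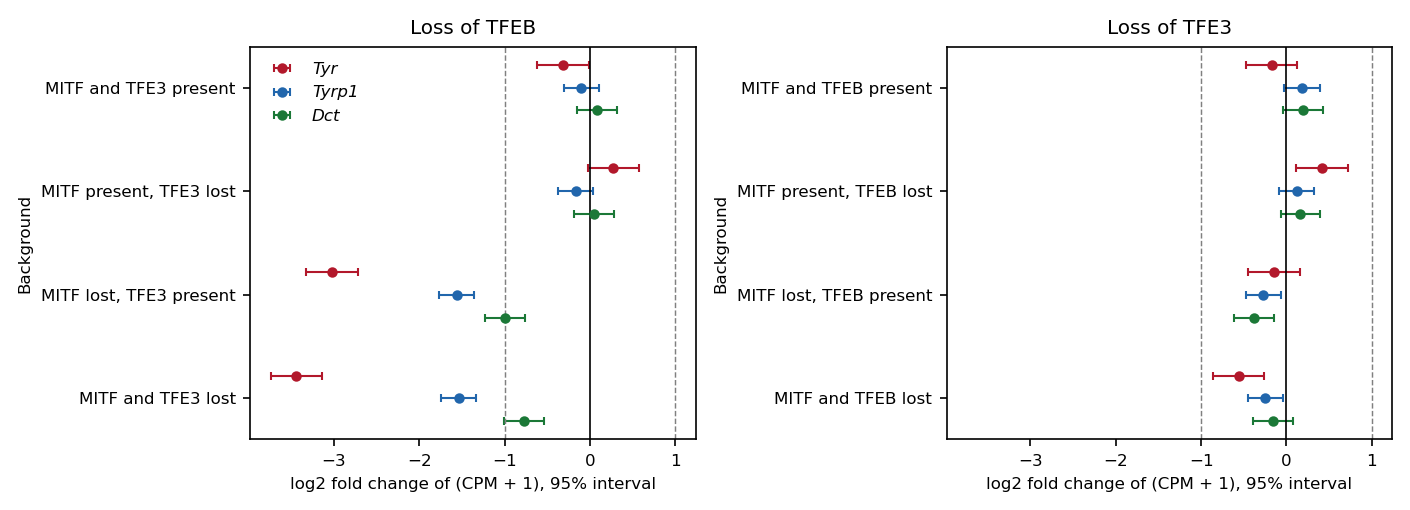
log2 fold change of CPM + 1 for Tyr, Tyrp1 and Dct on loss of TFEB (left) and of TFE3 (right) in 4 backgrounds each, with 95% intervals from the limma fit and dashed lines at 2-fold. On the left the 3 genes lie near 0 with MITF present and at -3.02, -1.56 and -0.9988 in MITF/TFEB DKO against MITF KO, and on the right the 12 points lie between -0.56 and 0.42.

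Setting TFEB loss against TFE3 loss directly, in cells without MITF, MITF/TFEB DKO was below MITF/TFE3 DKO for Tyr (-2.88, 7.36-fold, adjusted p = 2.1e-13) and Tyrp1 (-1.29, 2.45-fold, adjusted p = 3.2e-10), which were called, and for Dct (-0.62, 1.54-fold, adjusted p = 8.3e-05), which was not. In this pair 9.75% of genes were called and 47.9% passed the adjusted threshold.

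Loss of MITF was read in the same way. Against TFEB KO, MITF/TFEB DKO was called lower for Tyr (-2.95, 7.70-fold, adjusted p = 6.8e-14), and Tyrp1 (-0.90, 1.87-fold, adjusted p = 5.7e-08) and Dct (-0.37, 1.29-fold, adjusted p = 0.0077) were lower, against 14.7% of genes called and 56.5% past the adjusted threshold. In TKO against TFEB/TFE3 DKO, Tyr (-3.93, 15.2-fold, adjusted p = 2.8e-16) and Tyrp1 (-1.27, 2.41-fold, adjusted p = 1.9e-10) were called and Dct was lower (-0.69, adjusted p = 1.6e-05), against 15.9% called and 57.9% past the adjusted threshold. With TFEB present and TFE3 lost, MITF/TFE3 DKO differed from TFE3 KO by -0.21 for Tyr, 0.10 for Tyrp1 and 0.13 for Dct (adjusted p from 0.25 to 0.42, intervals from -0.51 for Tyr to 0.37 for Dct), and 8.0% of genes were called. These pairs share lines with those above and are not independent of them.

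Whether the effect of TFEB differed with MITF status was tested as an interaction, the difference between its effects without and with MITF. With TFE3 present, the interaction was -2.70 for Tyr (SE 0.21, adjusted p = 3.6e-10), -1.46 for Tyrp1 (SE 0.14, adjusted p = 2.1e-08) and -1.08 for Dct (SE 0.16, adjusted p = 1.2e-05), and all 3 were called, against 12.3% of genes. Quantile normalisation sets Dct to the same value in every library, since it is the highest gene in each, and so ends its call by construction. Without TFE3, the interaction was -3.71 for Tyr (adjusted p = 1.2e-12), -1.37 for Tyrp1 (adjusted p = 4.6e-08) and -0.82 for Dct (adjusted p = 2.1e-04), of which the first 2 were called, against 16.3% of genes called and 43.8% past the adjusted threshold.

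No interaction of TFE3 was called. With TFEB present, the effect of TFE3 loss was lower without MITF than with it for Tyrp1 (-0.45, adjusted p = 0.024) and Dct (-0.58, adjusted p = 0.012), and the interaction for Tyr was 0.03 (95% interval -0.40 to 0.46), with no call among the 3, 6.19% of genes called and 20.2% past the adjusted threshold. Without TFEB, the interaction was -0.98 for Tyr (adjusted p = 0.0027), just under 2-fold, -0.37 for Tyrp1 (adjusted p = 0.11) and -0.32 for Dct (adjusted p = 0.24), with 3.30% of genes called and 9.72% past the adjusted threshold. The edgeR quasi-likelihood test on the reads put Tyr past the bound at -1.03. For TFEB with TFE3, the interaction was 0.59 for Tyr with MITF present (95% interval 0.17 to 1.02, adjusted p = 0.061), -0.06 for Tyrp1 and -0.03 for Dct, against 3.73% of genes called. Without MITF it was -0.42, 0.02 and 0.22 for the 3 genes (adjusted p from 0.14 to 0.92), against 8.25% called.

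Since each genotype is 1 line, the genes that neighbour the 3 on the chromosome were read beside these results. These were the 100 nearest genes with a mean of at least 5 CPM. They span chr7:73389800-101444815 for Tyr, chr4:48190717-106536156 for Tyrp1 and chr14:64884714-123221471 for Dct, so that the readout is not local. In MITF/TFEB DKO against the parental cells their median difference was 0.06 around Tyr, -0.29 around Tyrp1 and 0.08 around Dct. This leaves -3.33, -0.71 and -0.37 for the 3 genes relative to them. For MITF/TFEB DKO against MITF KO, the neighbours were at 0.22, -0.24 and 0.11, which leaves -3.25, -1.33 and -1.11. For TKO against MITF/TFE3 DKO, they were at 0.51, -0.21 and 0.26, which leaves -3.95, -1.33 and -1.03. In MITF KO against the parental cells, the neighbours were at -0.11, 0.02 and -0.04. In MITF/TFE3 DKO against the parental cells, the neighbours of Tyr were at -0.30, close to the -0.39 of Tyr itself.

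The 3 genes did not fall by the same amount, and this was tested within libraries on log2(CPM + 1). There scaling cancels except for the added 1, which understates the fall of Tyr. Among the cells without MITF, the log2 difference of Tyr minus Dct was -10.25 ± 0.24 (SD) in the 6 libraries without TFEB and -7.90 ± 0.24 in the 6 with TFEB. On this scale Tyr thus fell 5.08-fold further than Dct (-2.34, range -10.52 to -9.94 against -8.14 to -7.60). Tyr minus Tyrp1 changed by -1.68, or 3.21-fold, and Tyrp1 minus Dct by -0.66, or 1.58-fold. In each pair the 6 libraries without TFEB lay below the 6 with it, and the two-sided exact permutation p was 0.00216, the smallest that 6 libraries against 6 can give (adjusted over the 3 pairs, 0.00216). These 12 libraries are repeats of 4 lines, and the test exchanges libraries without regard to the line, so that it covers the spread between libraries only. Over the lines themselves, 2 against 2, an exact test cannot go below 0.333, and whether these lines are independent is not known.

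**Figure D4:**
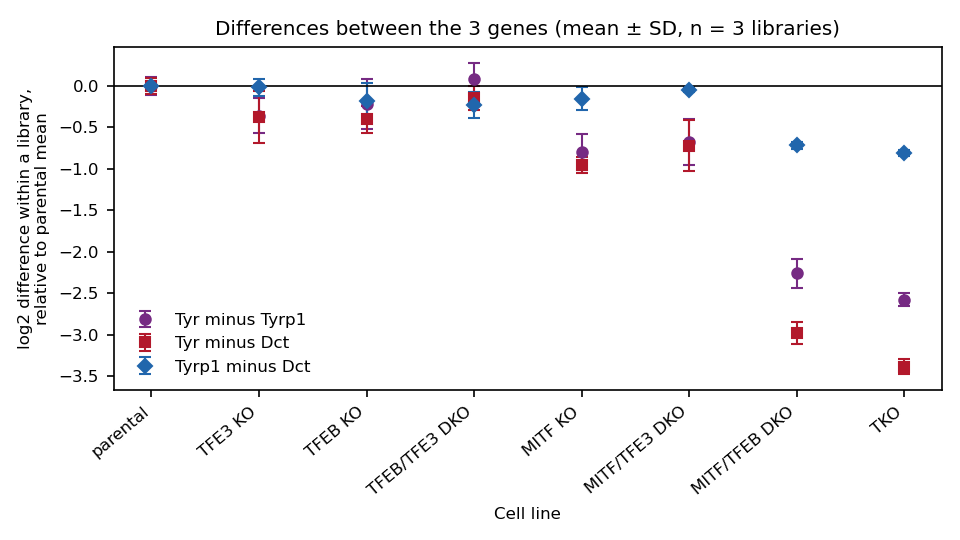
Difference in log2(CPM + 1) between pairs of the 3 genes within a library, relative to its parental mean, in the 8 cell lines (mean ± SD, n = 3 libraries). In MITF/TFEB DKO and TKO, Tyr minus Dct stands at -2.98 and -3.38 and Tyrp1 minus Dct at -0.72 and -0.81, and with MITF lost but TFEB present Tyr minus Dct stands at -0.95 (MITF KO) and -0.72 (MITF/TFE3 DKO).

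Relative to Dct, Tyr was also lower than in the parental cells in other lines, with and without MITF. Tyr minus Dct was -8.02 ± 0.10 in MITF KO and -7.79 ± 0.31 in MITF/TFE3 DKO against -7.07 ± 0.09 in the parental cells (SD, n = 3), with no overlap with the parental range. It was -7.47 ± 0.16 in TFEB KO, which did not overlap the parental range either, and -7.44 ± 0.32 in TFE3 KO, and both overlapped MITF/TFE3 DKO. In MITF KO, MITF/TFE3 DKO and the parental cells, in this order, Tyrp1 minus Dct was -2.94 ± 0.14, -2.83 ± 0.03 and -2.79 ± 0.05. Over the means of all 8 lines, Pearson r was 0.942 for Tyrp1 with Dct (Spearman rho 0.952), 0.93 for Tyr with Tyrp1 (rho 0.476) and 0.790 for Tyr with Dct (rho 0.452). Without MITF/TFEB DKO and TKO, lines left out after their values were seen, r over the other 6 was 0.925, -0.364 and -0.293, so that the positive r of Tyr rests on those 2 lines. These are descriptions over lines that share libraries and scaling.

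The other genes of the melanosome were read from lists of genes. Of 12 genes for melanosome cargo, channels and receptors, 6 were called lower and none higher in MITF/TFEB DKO against MITF KO, where 3.99% of all genes were called lower, with a median of -1.14 over the 12 and 0.02 over all genes. Slc45a2, a melanosomal transporter, differed by -2.51 (60.8 CPM in MITF/TFEB DKO and 350.5 CPM in MITF KO, SE 0.09). The melanocortin receptor Mc1r differed by -2.05 (89.0 and 372 CPM, SE 0.09). Pmel, which forms the fibrils of the melanosome, differed by -1.91 (940.4 and 3526 CPM, SE 0.11), and the channel gene Trpm1 by -1.78 (8.81 and 32.5 CPM, SE 0.20). In all 4 the limma adjusted p was at most 8.5e-08. The difference of Tyr (-3.02) lay below that of each of the 12 genes, and that of Dct (-0.9988) was nearest to Mlana (-0.97).

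In TKO against MITF/TFE3 DKO 8 of the 12 were called lower, against 5.75% of all genes, with a median of -1.73 (0.01 over all genes), and Pmel, Slc45a2 and Trpm1 were among them at -2.69, -2.70 and -3.30. In MITF KO against the parental cells 1 of the 12 was called, a share near the 6.28% of all genes. This was Gpr143, the gene of a melanosomal receptor, which fell by 1.14 on the log2 scale (7.97 against 18.3 CPM), and the median was 0.25 (0.00 over all genes). In MITF/TFE3 DKO against MITF KO 1 was called higher and none lower, near the 5.06% called among all genes, with a median of -0.09.

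**Figure D5:**
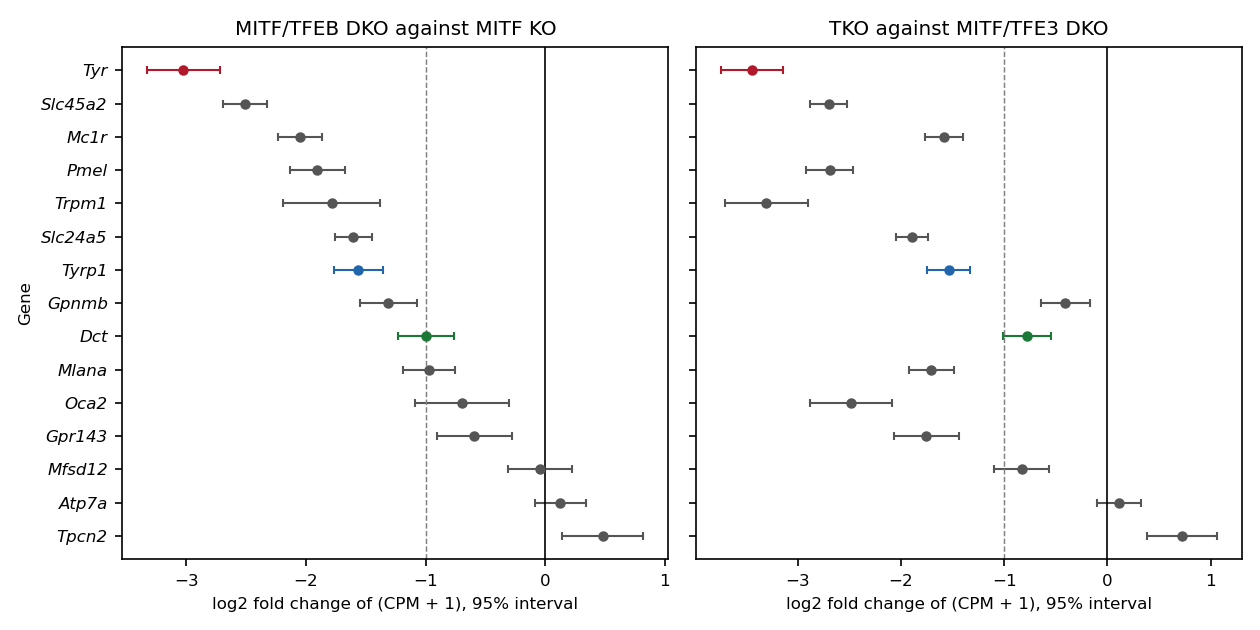
log2 fold change of CPM + 1 with 95% intervals for Tyr, Tyrp1, Dct (coloured) and 12 genes for melanosome cargo, channels and receptors (grey), in MITF/TFEB DKO against MITF KO (left) and TKO against MITF/TFE3 DKO (right), in the order of the left panel. The dashed line marks a 2-fold lower level. On this scale Tyr is the lowest point in both panels (-3.02 and -3.44). On the right this order rests on the added 1, since the mean of Trpm1 went from 23.2 to 1.49 CPM, a larger ratio than that of Tyr (101 to 8.35 CPM), and Dct lies at -0.9988 and -0.78.

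Of 20 genes that deliver the enzymes to the melanosome, 1 was called higher and 1 lower in MITF/TFEB DKO against MITF KO, a share close to the 10.9% of all genes, with a median of -0.24. The latter was Rab27a, a GTPase of melanosome transport (-1.74, 15.8 against 54.7 CPM), and the former Rab32, a GTPase that sorts tyrosinase and Tyrp1 to melanosomes (1.04, 36.4 against 17.0 CPM). None of the 20 was called in MITF KO against the parental cells (median -0.02, 6.28% of all genes), and 1 was called lower in TKO against MITF/TFE3 DKO (median -0.21, 5.75% of all genes called lower).

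Of 11 transcription factors of the melanocyte lineage, 8 were in the table. Lef1, Tfec and Irf4 were not analysed here. In MITF/TFEB DKO against MITF KO 1 was called lower, Sox9 (-1.02, 36.7 against 75.1 CPM), and 1 higher, Usf1, at a very low level (1.15, 2.25 against 0.411 CPM). Among all genes 10.9% were called there, and the median of the 8 was -0.23. Sox10, which activates Dct in melanocytes, was at 787 CPM in MITF KO, and it was higher in MITF/TFEB DKO than in MITF KO (0.42, adjusted p = 0.0010) without a call. Mitf transcript itself was called lower in MITF/TFEB DKO than in MITF KO (-1.27, adjusted p = 1.3e-10) and in TKO than in MITF/TFE3 DKO (-1.83, adjusted p = 1.8e-13), as were Tyr and Tyrp1.

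The shared promoter sequence was found in other genes that moved in either direction. Besides the 3 genes, 252 genes of the table with a promoter window held TCATGTG. In MITF/TFEB DKO against MITF KO, 18 of them were called lower (7.14%) and 19 higher, and of the 9392 genes without it 372 were called lower (3.96%) and 623 higher. In TKO against MITF/TFE3 DKO, 35 of the 252 were called lower (13.9%) and 13 higher, against 517 of the 9392 lower (5.50%) and 520 higher. The longer TCATGTGCT was held by 13 other genes. In MITF/TFEB DKO against MITF KO, 2 of the 13 were called lower (15.4%) and 2 higher. Of the 9631 genes without it, 388 were called lower (4.03%) and 640 higher. In TKO against MITF/TFE3 DKO, 2 of the 13 were called lower (15.4%) and none higher, against 550 of the 9631 lower (5.71%) and 533 higher. These shares were not tested. In the list of melanosome cargo, channels and receptors, 8 genes had a window, and Mc1r, Slc24a5 and Trpm1 held TCATGTG.

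By the correlation of 8 line means of log2(CPM + 1) over 9536 other genes with a mean of at least 5 CPM, the nearest to Tyr were Pus3 (r = 0.997), Fam111a (0.996) and Tpd52l1 (0.993). Tpd52l1 was at 49.0 ± 4.44 CPM in the parental cells, 42.4 ± 2.68 in MITF KO, 9.85 ± 1.39 in MITF/TFEB DKO and 5.88 ± 0.769 in TKO (SD, n = 3), and Pus3 at 28.7 ± 1.59, 25.8 ± 1.18, 10.7 ± 1.18 and 8.27 ± 0.868. The pattern that they share is the low level in the last 2 lines. Nearest to Tyrp1 were Gak (0.988), Ptprg (0.987) and Hdgfl2 (0.987). Gak was at 44.9 ± 3.54 CPM in the parental cells, 51.7 ± 0.722 in MITF KO, 37.3 ± 1.58 in MITF/TFEB DKO and 33.6 ± 2.60 in TKO. Its differences were smaller in ratio than those of Tyrp1, since the correlation does not measure the size of a change. Nearest to Dct were Ptprs (0.986), Trnp1 (0.982) and Ahcyl2 (0.982). Trnp1 was at 8.35 ± 0.622 CPM in the parental cells, 34.8 ± 2.23 in MITF KO, 20.3 ± 0.346 in MITF/TFE3 DKO, 4.24 ± 0.292 in MITF/TFEB DKO and 3.76 ± 0.925 in TKO, and Ptprs at 104.8 ± 4.50, 159.7 ± 6.63, 121.7 ± 26.4, 78.7 ± 7.88 and 76.7 ± 1.87. For both genes, as for Dct, the mean was highest in MITF KO among the 8 lines.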

How the data were processed

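RNA from 24 libraries (8 lines, 3 each) was prepared with a poly(A)-primed 3′ end kit. Per the labels and the study's methods, the authors trimmed reads with Trim Galore 0.6.5 (cutadapt 2.10, FastQC 0.11.9), mapped them with STAR 2.7.8a to mm39 and normalised counts with edgeR. Which tool counted reads per gene, with which annotation, and how the table came to 12010 genes are not given in the sources used here. The deposited values are a signal that is never negative, CPM scaled by TMM, with totals of 933263 to 1081081 per library. A table of normalised counts had been foreseen, and the planned log-scale test was kept. Whole reads were recovered (100% of values within 0.1 of a whole read, 99.99% in the lowest library).

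Lines were compared with limma 3.58.1 (R 4.3.3) on log2(CPM + 1), with the 24 libraries in 1 fit of the line (16 residual degrees of freedom), a variance trend and Benjamini-Hochberg adjustment over all genes, in 17 pairs of lines and 6 interactions. As alternatives, recovered reads were tested by quasi-likelihood in edgeR 4.0.16, and limma was run with pseudocounts of 0.25 and 5, for the 9539 genes whose mean was 5 or more, after quantile or median-of-ratios normalisation, without the variance trend, on the compared libraries alone, with an adjusted threshold, with the replicate block, relative to neighbouring genes and without each library in turn. Differences within libraries were tested by exact permutation (scipy 1.17.1). Read totals bear on counting error and not on other technical spread.

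On simulated data for MITF KO against parental over 12010 genes, limma called 93.0% of 100 genes changed 2.5-fold, 100% of 100 changed 4.0-fold and 0.0423% of 11810 unchanged genes. With edgeR these shares were 97.0%, 100% and 0.423%. The changed genes were drawn from those with a mean above 100 reads, and no difference between clones was simulated. The recovery thus does not cover low genes or differences of a line.

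The genes, lists and tests were chosen with earlier results of these data known. Named genes were the 3 enzymes, the edited genes, up to 4 called genes of each list with the largest change in MITF/TFEB DKO against MITF KO and up to 2 in MITF KO against parental, and the 3 nearest patterns to each enzyme. Other genes (Mlana, Slc24a5, Sox10 and the cell type markers) were named after their values were seen or as markers. Loci are from GENCODE vM39 and promoters from RefSeq. Of the 12010 genes, 11659 had a position on mm39. ChIP-seq, protein and tumour data were not analysed here.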

Additional observations from a re-analysis of the deposited data

Results flagged for a closer look

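The effect of TFEB loss differed between cells without and with MITF by the interaction term of the limma fit. With TFE3 present the interaction was -2.70 for Tyr, -1.46 for Tyrp1 and -1.08 for Dct on the log2 scale, and without TFE3 it was -3.71, -1.37 and -0.82. In all 6 the libraries without TFEB lay below those with it in the cells without MITF.

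The effect of TFE3 loss differed with MITF status for Tyrp1 (-0.45) and Dct (-0.58) with TFEB present, and for Tyr (-0.98) without TFEB. These 3 were under 2-fold and rest on the adjusted p. No cause of these differences was tested, and other differences between the lines and an effect of the knockouts cannot be told apart.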

How the results depend on the processing

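Over the 23 comparisons and interactions no called difference of Tyr, Tyrp1 or Dct changed sign. With an adjusted threshold in place of the 2-fold rule, 2 of the 3 genes passed in MITF KO against parental. In MITF/TFE3 DKO, 3 passed against parental and 2 against MITF KO. In TKO against MITF/TFEB DKO 1 passed, and in MITF/TFEB DKO against TFEB KO 3. In the interactions of MITF and TFE3, 2 passed with TFEB and 1 without it. Elsewhere Dct passed beside the called Tyr and Tyrp1. This held for MITF/TFEB DKO and TKO, each against parental and against MITF/TFE3 DKO. It also held for MITF/TFEB DKO against MITF KO, TKO against TFEB/TFE3 DKO, and the interaction of MITF and TFEB without TFE3. Quantile normalisation left 1 call in MITF/TFEB DKO and 1 in TKO against parental and gave a difference of 0 for Dct in every comparison, since Dct is the highest gene of each library. In the interaction of MITF and TFE3 without TFEB, 1 gene was called with edgeR (Tyr, -1.03) and 1 with a pseudocount of 0.25 (Tyr, -1.02), and leaving out each library gave 0 to 1. Without parental replicate 1 or MITF/TFEB DKO replicate 1, 1 gene was called in MITF/TFEB DKO against parental, a range of 1 to 2.

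The replicate numbers do not pair the libraries (mean correlation 0.022 over 84 same-numbered pairs of different lines and -0.013 over 168 others), and the replicate block changed no call of the 3 genes (Tyr, MITF KO against parental, -0.24 with and without it). It moved the counts of called genes by at most 1.01 times. Those counts did depend on other choices, by 1.2 to 7.48 times with edgeR, 1.24 to 4.26 times with a pseudocount of 0.25, 0.174 to 0.568 times with a pseudocount of 5 and 0.304 to 0.721 times for genes with a mean of at least 5, so that the shares of called genes given as background hold for the main test only. Called genes varied by 0.739 to 1.91 times when 1 library was left out. Depth limits Tyr most, at 161 reads in its lowest library.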
